A study of Mus musculus with 14 samples.

Results

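The genes described here are 41 interferon-stimulated genes, taken by symbol from the 53801 genes counted in Tregs with constitutive Junb deletion and the 55487 genes counted in Tregs with inducible deletion. All 41 were found in both count tables. They comprise 4 signalling regulators, 3 sensors of foreign nucleic acid, 15 antiviral effectors, 6 interferon-induced GTPases, 2 genes of antigen processing, 2 Schlafen genes and 9 further interferon-induced genes.

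The study asked how JunB, a subunit of the AP-1 transcription factor, shapes the transcriptome of mouse regulatory T cells (Tregs) in the gut. RNA-seq was performed on 14 libraries of sorted Tregs in 6 groups. PP Tregs (CD4+Foxp3(YFP)+CD62L-) came from the Peyer's patches (PP) of untreated adult male Foxp3YFPcre mice, 2 JunB F/+ (HET) and 2 JunB F/F (KO). Adult Foxp3ERT2cre Rosa26-tdTomato+ mice received 3 doses of tamoxifen (8 mg each, by gavage on days 0, 1 and 3) and were analysed on day 7. From these, CD25- PP Tregs (TCRb+CD4+Foxp3(EGFP)+tdTomato+CD25-) were sorted from 2 JunB F/+ (iHET) and 2 JunB F/F (iKO) mice, and colonic lamina propria Tregs (the same gate without the CD25 criterion) from 3 iHET and 3 iKO mice. In each inducible group replicate 1 was male and the others were female, and the females carried 2 copies of the X-linked Cre allele. All groups carried Cre, driven from the Foxp3 locus, and at least 1 floxed Junb allele, so that the controls are heterozygous for the deletion. Off-target germline deletion is known for the constitutive Cre line, and the breeding of the study was arranged to limit it.

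Interferons are secreted upon viral or microbial challenge and signal through paired receptors and JAK kinases. Type I interferon acts through a factor that contains STAT2 and IRF9 and binds the interferon-stimulated response element (ISRE), whereas interferon-γ acts mainly through the gamma-activated sequence (GAS). The genes they switch on block viral replication, sense viral RNA, load peptides onto MHC class I and feed back on the receptor, and many are transcribed at a low tonic level in resting T cells.

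Expression is given as CPM (counts scaled to library size) after TMM normalization, except where levels of different genes are compared, for which counts were divided by exon length (TPM). Libraries held 26274861 to 35508709 counts, at which 3 counts, the limit taken for detection, correspond to 0.0899 to 0.111 CPM. Junb was at 4750 and 5330 CPM in PP HET against 606 and 561 in KO, at 5550 and 4180 against 891 and 911 in CD25- PP Tregs, and at 6860 to 8470 against 993 to 1030 in the colon. The source of the remaining counts was not tested. The 8 Treg markers examined, Foxp3 and Cd4 among them, were detected in all 14 libraries. Il2ra, which encodes CD25, was at 185 to 239 CPM in the CD25- PP libraries against 561 to 752 in the colonic libraries, following the gate. Epithelial, B cell and myeloid markers were also detected in every group. Because the libraries are bulk RNA, a change in the share of cells that express a gene cannot be told apart from a change per cell.

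The promoters of these genes carry the interferon motif far more often than promoters at large. A RefSeq window (GRCm38.p6) of 250 bases before and 50 bases after the annotated start was given for 31 of the 41 genes and for 27025 genes in all. The core ISRE letters GAAANNGAAA, sought on both strands, were in the windows of 17 of the 31 members (54.8%) against 3.99% of all genes. They were in those of all 5 GTPases with a window (Gbp2, Gbp3, Gbp7, Igtp and Irgm1), of 8 of 13 antiviral effectors and of neither antigen processing gene. The GAS letters TTCNNNGAA were in 7 members (22.6%, against 9.55% of all genes). The AP-1 letters TGANTCA, the class of site JunB binds, were in 9 (29.0%, against 8.97%), including Ifit3, Ifit3b, Oas3, Rsad2, Gbp2 and Irgm1. Ifit3 and Ifit3b are close copies with the same match, TGATTCA. Gbp3 and Oasl2, the members called on JunB loss below, were not among the 9. A letter match is a description of the sequence and not evidence of binding.

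The 160 bases before the start are shown for Gbp3 and Isg15, the members with the lowest p between colon and CD25- PP, and for Ifit3 and Rsad2, antiviral effectors that recur in the results. They are read 5′ to 3′ on the gene's strand, with every base of an ISRE match on either strand in capitals. A match on the opposite strand appears as its reverse complement, and matches that overlap run together. The windows are chr3:142559884-142560043 (plus strand) for Gbp3, chr4:156200819-156200978 (minus) for Isg15, chr19:34583369-34583528 (plus) for Ifit3 and chr12:26456453-26456612 (minus) for Rsad2.
Gbp3: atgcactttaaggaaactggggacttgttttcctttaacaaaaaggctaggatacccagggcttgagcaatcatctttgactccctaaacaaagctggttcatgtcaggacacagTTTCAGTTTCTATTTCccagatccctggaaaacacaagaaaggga
Isg15: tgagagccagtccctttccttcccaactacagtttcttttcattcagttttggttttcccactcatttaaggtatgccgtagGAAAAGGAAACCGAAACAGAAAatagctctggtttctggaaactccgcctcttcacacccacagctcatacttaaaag
Ifit3: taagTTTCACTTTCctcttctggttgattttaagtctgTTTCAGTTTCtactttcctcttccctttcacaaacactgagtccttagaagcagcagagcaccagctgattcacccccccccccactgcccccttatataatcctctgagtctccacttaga
Rsad2: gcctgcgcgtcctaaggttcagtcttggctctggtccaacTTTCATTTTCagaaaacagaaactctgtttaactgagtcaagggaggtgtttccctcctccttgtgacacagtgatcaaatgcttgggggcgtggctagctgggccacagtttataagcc

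Most interferon-stimulated genes were expressed in all 3 Treg populations without any infection described in the labels. Per length, Ifi27l2a, a short interferon-induced gene, was highest in each, at a mean of 750 TPM in PP Tregs (684 to 882 across libraries), 1370 TPM in CD25- PP Tregs (899 to 1870) and 847 TPM in colonic Tregs (405 to 1180). Its gene spans chr12:103442167-103443680. Igtp, an immunity-related GTPase that guards vacuoles, and Tap1, a subunit of the peptide transporter of MHC class I, were among the 4 highest in each population. Igtp had means of 449, 296 and 407 TPM and Tap1 of 271, 262 and 307 TPM in PP, CD25- PP and colonic Tregs. Isg15, a ubiquitin-like modifier, completed the 4 highest with means of 315, 343 and 183 TPM. The ranges of neighbours in these orders often overlapped. In CD25- PP Tregs Isg15 spanned 197 to 437 TPM and Igtp 257 to 344 TPM, so that their order does not hold library by library.

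At the other end, Ifit3b, a close copy of Ifit3, had the lowest level per length in PP Tregs (mean 0.763 TPM), with 3 counts in KO replicate 2, and it was the only member that did not pass the expression filter of PP Tregs. Oas2, a 2′-5′-oligoadenylate synthetase, was next at 0.849 TPM, while Ifi44 was lowest in the colon at 0.626 TPM. Of the 50-base stretches in the transcripts of Ifit3, 51.2% also occur in other genes, mainly Ifit3b. The share was 45.0% for Ifit3b and 57.6% for Oas1a, shared mainly with Oas1g and Oas1b. As only reads with a single location were kept, the counts of these 3 genes come from their remaining stretches and their levels are uncertain. The share was at most 7.13% (Ifit1) in the other members. Dtx3l and Parp9 share 458 exon bases on opposite strands, and Tap1 and Psmb9 share 212, which the unstranded counts could not separate.

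**Figure D1:**
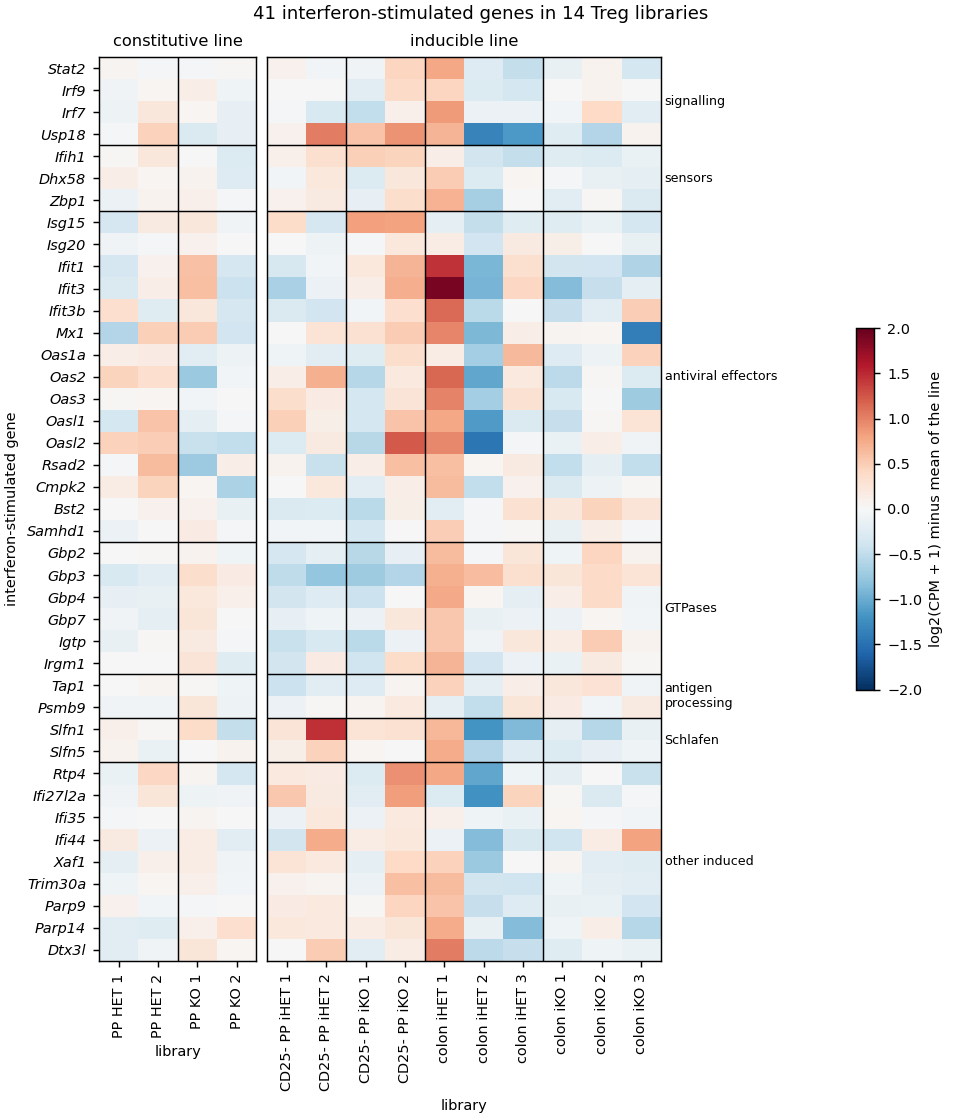
Heat map of the 41 interferon-stimulated genes (rows, grouped by role) in the 14 libraries (columns). Colour is log2(CPM + 1) minus the gene's mean over the libraries of its line, cut at -2 and 2. Colonic iHET replicate 1 is red for most genes and colonic iHET replicate 2 blue for most.

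A single colonic control library stood apart in these genes and touches every comparison it enters. Of the 6 colonic libraries, iHET replicate 1 was the highest for 34 of the 41 members, whereas it was the highest for 21.8% of the genes that passed the filter. These included all 4 signalling regulators, all 6 GTPases and 11 of the 15 antiviral effectors. Ifit3 was at 19.4 CPM in it against 1.86 and 6.3 in the other iHET and 2, 2.97 and 3.81 in the iKO libraries. Ifit1, which encodes an RNA-cap binding protein, was at 71.7 CPM in it against 13.2 to 32.4 in the other 5. Stat2, a subunit of the factor that binds the ISRE, was at 175 CPM in it against 72.6 to 107, and Dtx3l, a ubiquitin ligase that pairs with Parp9, at 258 CPM against 88.1 to 119. Over the members the median log2 ratio of this library to the mean of the other 5 was 0.76, against -0.04 over all tested genes. The ratio exceeded 1.5 for 26 members (63.4% of them) and for 6.91% of all genes.

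Some interferon-stimulated genes did not take part. Isg15 was at 47.9 CPM in the same library and 39.5 to 50.3 in the other 5, and Bst2, which tethers budding virions, was at 39.5 CPM against 44.5 to 62.9. At the opposite extreme, iHET replicate 2 was the lowest of the 6 for 26 members (12.3% of all genes were lowest in it). It held 3.66 CPM of Oasl2, an OAS-like gene, against 10.6 to 23.9 in the other 5. The colonic control group was therefore spread more widely in the members than in genes at large. The highest over the lowest library had a median of 2.24 over members and 1.55 over all genes in iHET, but 1.24 and 1.38 in iKO. Neither the male iKO replicate 1 nor the female iHET replicate 2 was the highest for any member, against 12.2% and 13.6% of all genes. With 34 of the 41 highest in iHET replicate 1, few were left to the other 5 libraries. As iHET replicate 1 was the only male colonic control, its sex cannot be told apart from the library itself. Myeloid markers summed to 169 CPM in iHET replicate 1 against 89.8 to 254 in the other colonic libraries, and plasmacytoid dendritic cell markers to 94.7 against 73.1 to 97.4. Both sums thus lay inside the range of the other 5 libraries. In iHET replicate 1 most of the plasmacytoid sum came from Pacsin1 (40.7 CPM) and Tcf4 (47.2 CPM), with Siglech at 0.142 CPM. Of the plasmacytoid markers, Klk1 and Tcf4 were highest in iHET replicate 1, while Siglech, Pacsin1, Cox6a2 and Spib were not. The part of these cells in the values was not tested.

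A similar but smaller shift was seen in CD25- PP Tregs. Of their 4 libraries iKO replicate 2 was the highest for 29 members, against 28.4% of all genes, and iKO replicate 1 the lowest for 25, against 23.5%. Oasl2 was at 28.7 CPM in iKO replicate 2 and 7.69 in replicate 1, with 9.59 and 13.4 in iHET. Rtp4, an interferon-induced chaperone, was at 56.2 and 24.1 CPM in the 2 iKO libraries, with 33.9 and 33 in iHET. The same library had the highest sum of early response genes of tissue dissociation, 13900 CPM against 9710 to 10500 in the other 3, and of B cell markers, 97.6 CPM against 73.4 to 81.8. Among the former, the heat shock gene Hspa1a was at 767 CPM in it against 50.4 to 67.1. Their part in the shift was not tested. In the constitutive line the median deviation of the members lay between -0.07 and 0.08 in every library, and the highest over the lowest library had a median ratio of 1.09 (HET) and 1.16 (KO). The iKO group of CD25- PP Tregs and the iHET group of the colon thus each held a high library.

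**Figure D2:**
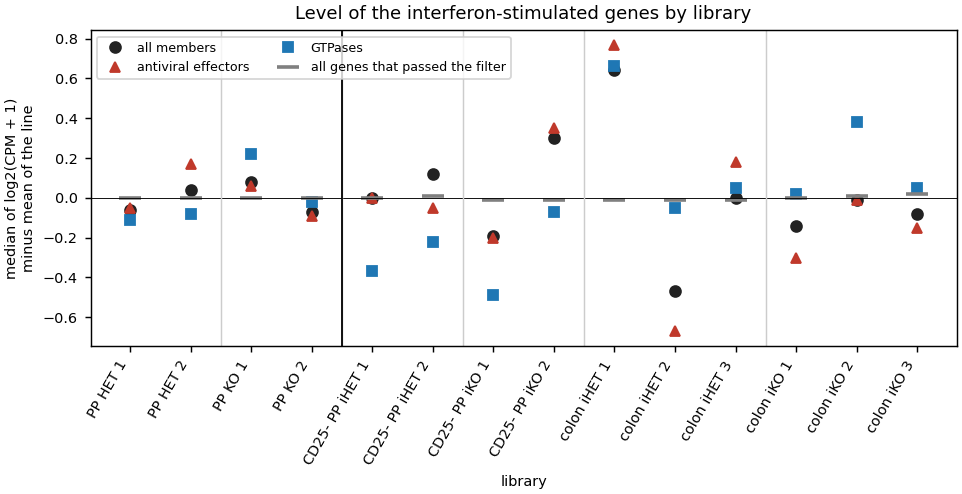
Median over genes of log2(CPM + 1) minus the gene's mean over its line (vertical axis), for each library (horizontal axis); circles, the members that passed the filter; triangles, antiviral effectors; squares, GTPases; grey bars, all genes that passed the filter. Colonic iHET replicates 1 and 2 lie at 0.64 and -0.47, while the grey bars stay within 0.02 of 0.

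Constitutive JunB loss in PP Tregs left the set without a common direction, with 1 member higher and 1 lower. Of 40 members tested, 20 were higher and 20 lower in KO, with a median log2 fold change of 0.02 (0 over all 12224 genes tested, of which 50.7% were higher). Gbp3 rose and Oasl2 fell, 2 of 40 members (5%) against 3.35% of all tested genes called by edgeR's quasi-likelihood test at an adjusted p below 0.05 (0.99% higher and 2.36% lower). The members' share was thus near that of genes at large. An unadjusted p below 0.05 was reached by 5 members higher and 4 lower in KO, against 5.8% and 8.18% of all genes.

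Gbp3, a guanylate-binding protein of cell-autonomous immunity (chr3:142560026-142573209), was at 162 and 174 CPM in the 2 HET libraries and was higher in KO, at 255 and 225 CPM, so that the genotypes did not overlap. Its log2 fold change was 0.52 ± 0.0881 (SE, n = 2 per group, adjusted p = 0.0218 by edgeR). Oasl2 (chr5:114896936-114912234) was at 12.9 and 13.3 CPM in HET and at 6.42 and 6.19 CPM in KO, with replicates closer than in any other comparison of this gene. Its log2 fold change was -1.05 ± 0.194 (SE, adjusted p = 0.0289 by edgeR). These calls do not withstand the loss of a library. Gbp3 had an adjusted p of 0.188 without HET replicate 1, 0.0884 without HET replicate 2, 0.0882 without KO replicate 1 and 0.0344 without KO replicate 2 (edgeR). Oasl2 had 0.185, 0.148, 0.0571 and 0.0787 in the same order, with log2 fold changes of -1.02 to -1.07.

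Of the GTPases 5 of 6 were higher in KO, with a median log2 fold change of 0.19. Gbp4 was at 236 and 239 CPM in HET and 305 and 284 in KO (adjusted p = 0.083 by edgeR), and Gbp7 at 339 and 314 against 420 and 354 (adjusted p = 0.328). Gbp2 was at 104 and 106 CPM in HET and 110 and 98.4 in KO, within the spread. Of the antiviral effectors 6 were higher and 8 lower, with a median of -0.07. Oas2 was at 1.68 and 1.49 CPM in HET against 0.179 and 0.89 in KO (adjusted p = 0.339 by edgeR), and Cmpk2, a mitochondrial nucleotide kinase next to Rsad2, at 8.62 and 10.9 against 7.93 and 4.64 (0.402). Ifit1, Ifit3 and Mx1 were highest in KO replicate 1 and low in replicate 2, so their groups overlapped.

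Among the rest, Parp14, an ADP-ribosyltransferase, was at 56.7 and 55.3 CPM in HET and 70.6 and 83.4 in KO. Its log2 fold change of 0.46 ± 0.111 (SE) had an adjusted p of 0.0755 by the quasi-likelihood test and 0.0387 by the exact test of edgeR, the test of the study, by which 1.91% of all genes were called higher and 3.73% lower. The groups did not overlap for 7 members that were higher in KO and 7 that were lower, that is 17.5% of those tested each way, against 21.8% of all tested genes each way. Usp18, which removes Isg15 from proteins and dampens the type I receptor, was at 19.9 and 28.1 CPM in HET and 16.4 and 18 in KO (adjusted p = 0.266 by edgeR). Stat2 and Irf9, its partner in the ISRE factor, had log2 fold changes of 0.00 and 0.04. Epithelial markers summed to 107 and 120 CPM in HET and 48.7 and 55.6 in KO, and B cell markers to 143 and 165 against 82.8 and 121. Markers of plasmacytoid dendritic cells, which are known producers of type I interferon, summed to 135 and 134 CPM in HET and 115 and 101 in KO, and all 5 that were tested were lower in KO without overlap. These 3 sums moved with the genotype, and their part in these values was not tested.

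In CD25- PP Tregs after acute deletion no member was called. The quasi-likelihood test of edgeR called 0 of 41 members and 0% of all 17079 tested genes, and neither the exact test of edgeR, which called 0.0293% of all genes higher and 0.222% lower, nor DESeq2 called a member. An unadjusted p below 0.05 was reached by 3 members, all higher in iKO, and by 3.62% of all genes (1.72% higher and 1.9% lower). Of the members 24 were higher and 17 lower in iKO, with a median log2 fold change of 0.10 (0 over all genes, of which 49.6% were higher). The group medians hinge on 1 library, since without iKO replicate 2 the median became -0.18, with 11 members higher and 30 lower.

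The lowest p values were those of antiviral effectors. Isg15 (chr4:156199424-156200818) was at 71.2 and 43.5 CPM in iHET and at 98.4 and 97.2 CPM in iKO. The iKO libraries were close together and above both controls, with a log2 fold change of 0.76 ± 0.233 (SE, adjusted p = 0.999 by edgeR). Without iHET replicate 1, the higher control, the log2 fold change was 1.17, and without iHET replicate 2, the lower control, it was 0.45. Each of these fits left 1 control library. The size of the difference thus depended on which control was kept. Ifit1 was at 20.4 and 24.8 CPM in iHET and 30.1 and 41.7 in iKO, and Ifit3 at 2.48 and 4.05 against 4.99 and 8.05. Their log2 fold changes were 0.66 ± 0.216 and 0.98 ± 0.388 (SE, both adjusted p = 0.999 by edgeR). Groups did not overlap for 8 members higher in iKO (19.5%, against 16.5% of all tested genes) and 1 lower (2.44%, against 15.6%), 6 of the 8 being antiviral effectors. The 6 GTPases had log2 fold changes of only -0.10 to 0.18, and Gbp3 was at 85.4 and 71.1 CPM in iHET against 74.2 and 81 in iKO.

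In colonic Tregs after acute deletion again no member was called. The quasi-likelihood test of edgeR, with replicate number taken as cage for a block, called 0 of 41 members. It called 0.00613% of the 16313 genes tested, a single gene. Neither DESeq2 nor edgeR's likelihood ratio test called a member. By the latter, 0.0429% of all genes were called higher and 0.11% lower. An unadjusted p below 0.05 was reached by 1 member, lower in iKO, and 3.87% of all genes (1.58% higher and 2.3% lower). Of the members 14 were higher and 27 lower in iKO, with a median log2 fold change of -0.11 (0 over all genes, of which 50.8% were higher). Without iHET replicate 1 this turned to 0.20, with 34 higher and 7 lower. As replicate number was the block, iKO replicate 1 then had no partner, and leaving out both libraries of that number gave 0.21. The sign of the median thus rested on the libraries of that number.

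Rsad2, which encodes viperin (chr12:26442746-26456452), was the member with the lowest p. It was at 24.4, 16.2 and 18.1 CPM in iHET and at 11, 13.8 and 10.9 CPM in iKO. All 3 iKO libraries lay below all 3 iHET libraries, which held for 1 of 41 members (2.44%) against 4.49% of all genes, while no member lay wholly above, against 3.86%. Its log2 fold change was -0.71 ± 0.233 (SE, n = 3 per group, adjusted p = 0.947 by edgeR), and -0.49 without iHET replicate 1. Gbp3 was at 200, 188 and 153 CPM in iHET and 145, 159 and 148 in iKO, with ranges that overlapped (log2 fold change -0.26 ± 0.115, adjusted p = 0.947 by edgeR), and Bst2 at 39.5, 44.5 and 56.8 against 53.6, 62.9 and 54.7 (0.29 ± 0.157, adjusted p = 0.947). The largest fitted differences belonged to Ifi44 (1.21 ± 0.716) and Ifit3 (-1.07), which are low or widely spread. Ifi44 was at 0.27 to 3.05 CPM in these libraries, highest in iKO replicate 3.

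**Figure D3:**
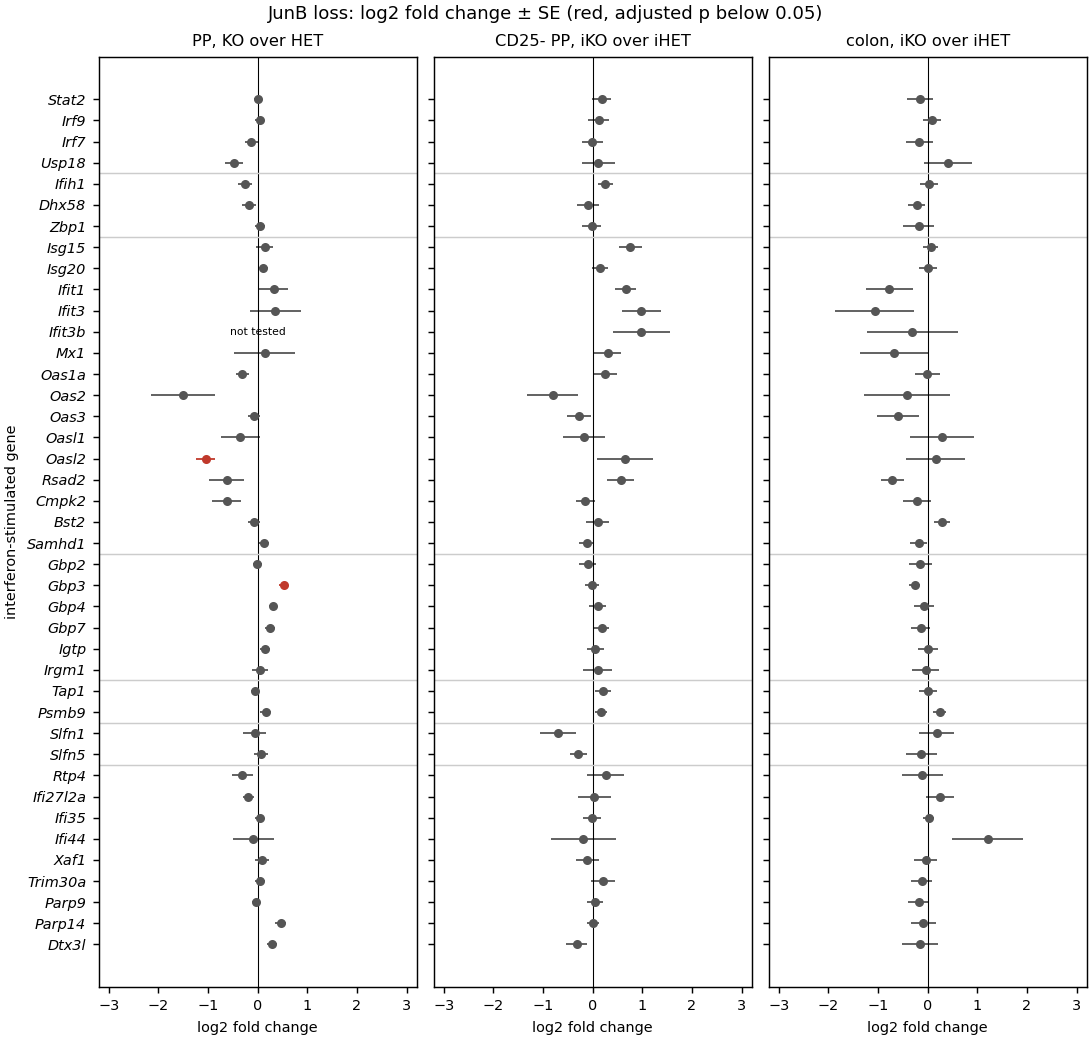
Log2 fold change on JunB loss (horizontal axis) of each member (vertical axis, grouped by role) in PP, CD25- PP and colonic Tregs; bars, ± SE of edgeR's quasi-likelihood fit; red, adjusted p below 0.05. Only Gbp3 and Oasl2 in PP Tregs are red, at 0.52 and -1.05, and Ifit3b was not tested in PP Tregs.

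The clearest differences in these genes lay between the 2 populations of the inducible line. Gbp3, Igtp and Gbp2, all GTPases, were higher in colonic than in CD25- PP Tregs, and Isg15 and Ifih1 were lower. These 5 of 41 members (12.2%) compare with 17.3% of the 18626 genes tested (10% higher and 7.29% lower), so the share called was below that of genes at large. The median log2 fold change over members was -0.10 (0 over all genes), with 13 higher and 28 lower. Organ, digestion, the CD25 gate and the share of male libraries differ together here and cannot be told apart. In each group only replicate 1 was male, of 2 libraries in CD25- PP and 3 in the colon. PP HET libraries, sorted without the CD25 criterion, held 162 and 174 CPM of Gbp3 and 230 and 259 of Igtp. Gbp2 was at 104 and 106 CPM in them, Isg15 at 52.7 and 75.2 and Ifih1 at 36.7 and 42.3. They come from the other line, without tamoxifen, and the lines were not compared by test.

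Gbp3 was at 85.4 and 71.1 CPM in iHET and 74.2 and 81 in iKO of CD25- PP, and at 153 to 200 in iHET and 145 to 159 in iKO of the colon. All 6 colonic libraries thus lay well above all 4 CD25- PP libraries, and the log2 fold change was 1.08 ± 0.104 (SE, adjusted p = 2.5e-04 by edgeR). The difference held within each genotype, at 1.20 in iHET (adjusted p = 0.00263 by edgeR) and 0.96 in iKO (adjusted p = 0.0102). Within iHET it was the only member called, of 6.45% of all genes, and within iKO it was called with Isg15, of 4.07%. Gbp3 was called in all 21 alternatives. Igtp (chr11:58199556-58207591) was at 155 to 208 CPM in the 4 CD25- PP libraries and 217 to 330 in the 6 colonic libraries (log2 fold change 0.60 ± 0.149, adjusted p = 0.022 by edgeR). Gbp2 was at 62 to 81.3 CPM against 86 to 143 (0.54 ± 0.159, adjusted p = 0.0432 by edgeR). These 3 were the only members whose populations did not overlap, which is 7.32% of members, against 9.05% of all tested genes higher in the colon, and 7.37% of all genes were lower in the colon without overlap.

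All 6 GTPases among the members had positive differences over both genotypes, with a median log2 fold change of 0.51. Gbp4 was at 147 to 197 CPM against 175 to 337 (adjusted p = 0.11 by edgeR), whereas Gbp7 and Irgm1 had log2 fold changes of only 0.08 and 0.11. Within iKO Gbp7 was at -0.10. Of the interferon-induced GTPases outside the members, part of a second list described below, only Gbp6 was called. Gbp2 was not called without colonic iHET replicate 1 (adjusted p = 0.0547 by edgeR) nor without any of 7 of the other 9 libraries in turn, of which CD25- PP iKO replicate 1 gave 0.143. With replicate number as a block its adjusted p was 0.0767. Igtp was not called without colonic iKO replicate 2 (0.0509), CD25- PP iHET replicate 1 (0.0738) or 2 (0.0639), or CD25- PP iKO replicate 1 (0.0853). Myeloid markers summed to 89.8 to 254 CPM in the colon and 57.4 to 102 in CD25- PP, and epithelial markers to 120 to 1080 against 83.7 to 187. Early response genes of tissue dissociation summed to 13400 to 21700 CPM against 9710 to 13900. Of the myeloid sum, Adgre1 alone was at 45.2 to 57 CPM in the colon and 41.3 to 56 in CD25- PP. All 7 myeloid markers had positive differences, with a median log2 fold change of 1.97. Markers of plasmacytoid dendritic cells summed to less in the colon, at 73.1 to 97.4 CPM against 126 to 141 in CD25- PP, without overlap. Singly, 2 of the 5 tested were higher and 3 lower in the colon. Only Pacsin1 was lower without overlap, at 30.5 to 61.8 CPM against 81.4 to 107. The part of these sums in the values was not tested.

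Isg15 was lower in the colon, at 39.5 to 50.3 CPM in the 6 colonic libraries against 71.2 and 43.5 in CD25- PP iHET and 98.4 and 97.2 in iKO. The overlap came from CD25- PP iHET replicate 2. Its log2 fold change was -0.72 ± 0.136 (SE, adjusted p = 0.00689 by edgeR), and within the genotypes it was -1.07 in iKO (adjusted p = 0.0184) and -0.37 in iHET (adjusted p = 0.304). Ifih1, which encodes the double-stranded RNA sensor MDA5 (chr2:62595798-62646255), was at 36.3 to 47.6 CPM in CD25- PP and 24.2 to 37.1 in the colon. Its log2 fold change was -0.57 ± 0.132 (SE, adjusted p = 0.0174 by edgeR), and only colonic iHET replicate 1 reached into the CD25- PP range. Ifih1 was not called without CD25- PP iHET replicate 2 (adjusted p = 0.0879 by edgeR), iKO replicate 1 (0.0651) or iKO replicate 2 (0.0648), nor with replicate number as a block (0.0604).

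The 9 further induced genes, which include Rtp4, Xaf1 and the Parp9 and Dtx3l pair, all had negative differences (median -0.26), none of them called. Usp18 was at 17.8 to 35.3 CPM in CD25- PP and 6.05 to 27.5 in the colon (log2 fold change -1.0, adjusted p = 0.122 by edgeR), and Slfn1, a regulator of T cell growth, at 60.2 to 140 against 21.5 to 80.8 (-0.90, adjusted p = 0.114). In each the top colonic value was that of iHET replicate 1. When this library was left out, 10 members (24.4%, against 21.4% of all genes in that fit) were called in place of 5, 8 of them lower in the colon, with Usp18, Slfn1, Slfn5, Trim30a, Parp9 and Dtx3l added and Gbp2 lost, and the median became -0.36.

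**Figure D4:**
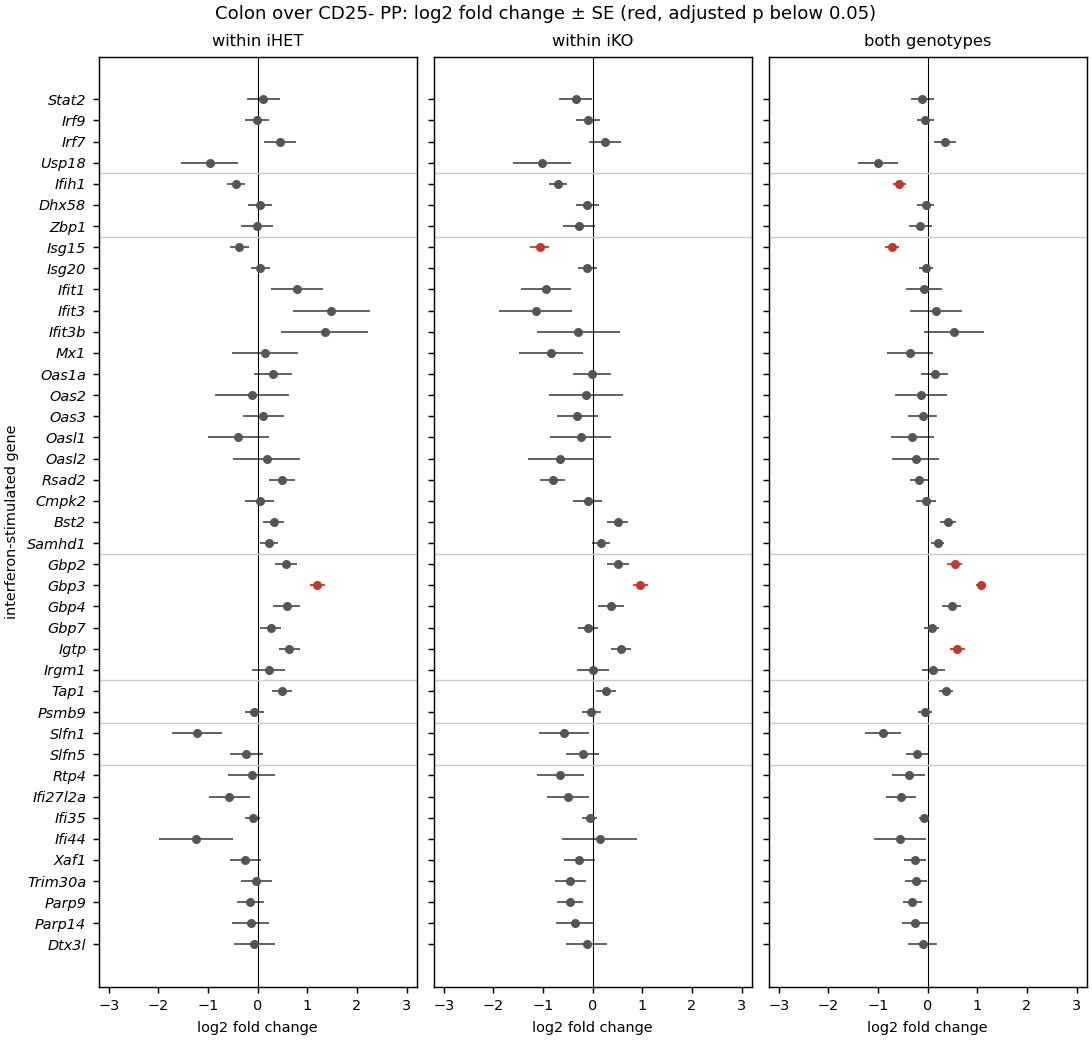
Log2 fold change of colonic over CD25- PP Tregs (horizontal axis) for each member (vertical axis, grouped by role) within iHET, within iKO and over both genotypes; bars, ± SE of edgeR's quasi-likelihood fit to 10 libraries; red, adjusted p below 0.05. Gbp3 is red in all 3 panels, at 1.20, 0.96 and 1.08, and all 6 GTPases lie to the right of 0 in the panel of both genotypes.

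Whether JunB loss acted differently in the 2 populations was tested as an interaction. No member and 0% of all 18626 genes were called by edgeR's quasi-likelihood test, and neither its likelihood ratio test nor DESeq2 called a member. An unadjusted p below 0.05 was reached by 4 members, all negative, and 3.34% of all genes (1.84% positive and 1.5% negative). These were Rsad2 (-1.29 ± 0.365, SE), Isg15 (-0.71 ± 0.275), Ifit3 (-2.63 ± 1.06) and Ifit1 (-1.73 ± 0.735), all antiviral effectors and all with adjusted p = 1. Rsad2 had means of 14 and 20.9 CPM in iHET and iKO of CD25- PP, and of 19.6 and 11.9 in the colon. The group means of this gene thus moved in opposite directions in the 2 populations, but neither difference was called.

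Of all members 33 had a negative interaction, with a median of -0.21 against 0 over all genes, of which 50% were positive. This sign rested on the high libraries named above, as the median was 0.07 without colonic iHET replicate 1, 0.04 without CD25- PP iKO replicate 2 and 0.35 without both. For Rsad2 the interaction was -0.84 without both (adjusted p = 1 by edgeR). Ifit3 had -1.09 and Isg15 -0.67 in the same fit.

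**Figure D5:**
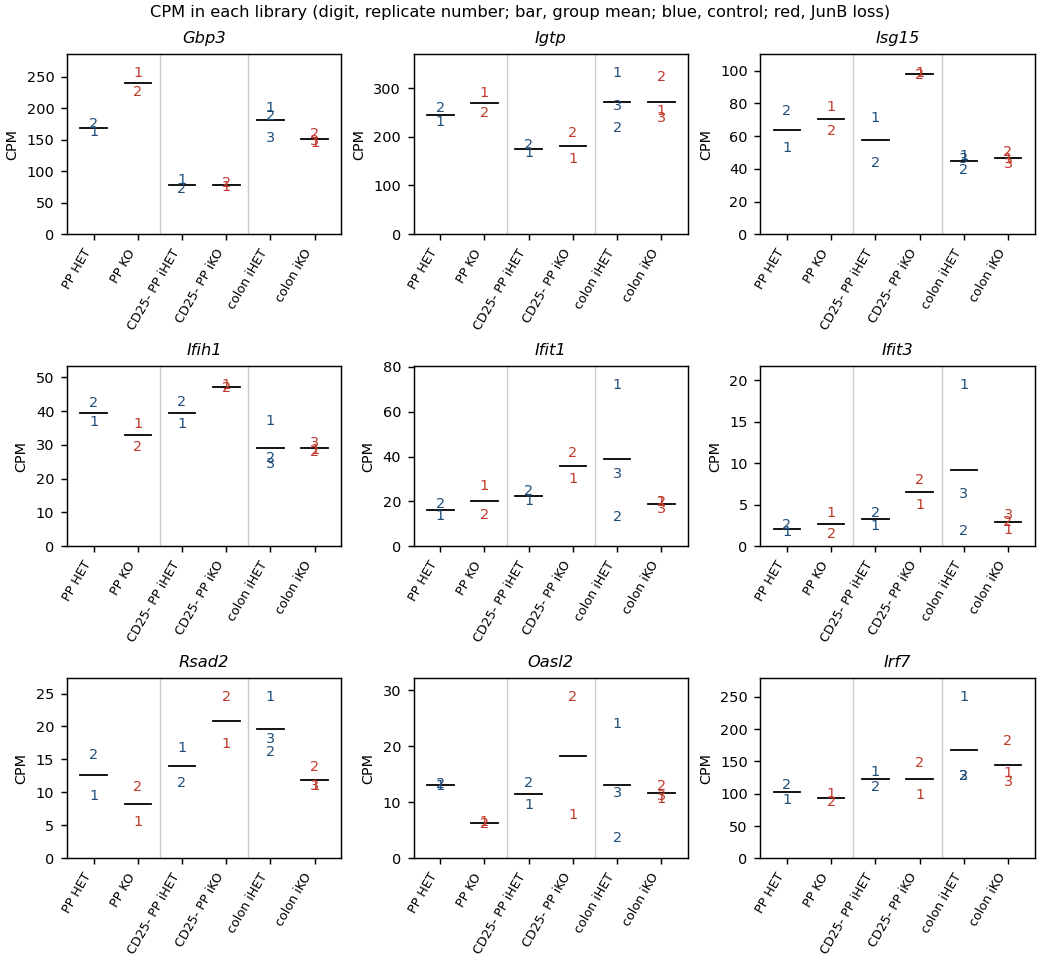
CPM (vertical axes, from 0) of 9 members in the 6 groups (horizontal axes); digits, replicate numbers of single libraries; bars, group means; blue, controls; red, JunB loss. Gbp3 of all 6 colonic libraries lies above the 4 CD25- PP libraries, and replicate 1 is the top colonic iHET value in Ifit1 (71.7), Ifit3 (19.4).

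The genes that carry the interferon signal were examined beside its targets. Of the ligands, only Ifng passed the filter, and the type I genes listed (Ifnb1, Ifna1, Ifna2 and Ifna4) were at 0 or below 0.5 CPM in every library. Ifng was at 3.95 and 5.95 CPM in iHET and 7.36 and 14.9 in iKO of CD25- PP (log2 fold change 1.16 ± 0.403, adjusted p = 0.999 by edgeR). It was at 17.8, 13.5 and 13.6 CPM in iHET and 24.6, 30 and 22.7 in iKO of the colon (0.78 ± 0.192, adjusted p = 0.947). In neither population did the genotypes overlap, but 16.5% (CD25- PP) and 3.86% (colon) of all tested genes were likewise higher in iKO without overlap. The colon was higher than CD25- PP in Ifng by 1.40 ± 0.228 on the log2 scale (adjusted p = 0.00341 by edgeR). In PP Tregs Ifng was at 2.97 and 9.94 CPM in HET and 9.94 and 7.05 in KO, within the spread.

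The receptors for interferon-γ and type I interferon were unequal between the populations. Ifngr1, the ligand-binding chain for interferon-γ, was at most 706 CPM in CD25- PP and 1290 to 1660 CPM in the colon (log2 fold change 1.31 ± 0.155, adjusted p = 7.2e-04 by edgeR). Ifnar1 was at 281 to 415 CPM against 489 to 572 (0.57 ± 0.123, adjusted p = 0.0127). The partner chains were not called, with Ifngr2 at 0.16 ± 0.179 (adjusted p = 0.582 by edgeR) and Ifnar2 at -0.20 ± 0.109 (0.233). On JunB loss none of the 4 chains was called in any comparison. In PP Tregs Ifngr1 was at 1110 and 1360 CPM in HET and 1690 and 1710 in KO (adjusted p = 0.0837 by edgeR).

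Of the 9 kinases, STATs and IRFs listed, 3 were higher in the colon (Irf1, Irf5 and Irf8) and 1 lower (Irf2). For this and the next lists, 10% of all genes were called higher in the colon and 7.29% lower. Irf1, an activator of the GBP genes, was at 234 to 309 CPM against 460 to 732 (log2 fold change 1.13 ± 0.156, adjusted p = 0.00156 by edgeR), and Irf2, its antagonist, at 147 to 169 against 94.3 to 129 (-0.54 ± 0.107, adjusted p = 0.00884). Of the 3 feedback genes, Socs1 and Ptpn2 were higher in the colon, at log2 fold changes of 0.40 and 0.50 (adjusted p = 0.0144 and 0.0104 by edgeR). Socs3, a feedback inhibitor of cytokine receptors, rose in PP KO, from 484 and 517 CPM to 709 and 739 (0.53 ± 0.0841, adjusted p = 0.0162 by edgeR). Of the 8 tested sensors and adapters outside the members 1, Tlr3, was higher in the colon (1.98, adjusted p = 0.0476 by edgeR). It was low and overlapped, at 0.109 to 1.38 CPM in CD25- PP and 0.969 to 4.56 in the colon. Its highest values, 4.56 CPM in iHET replicate 2 and 3.49 in iKO replicate 3, were in the libraries with the highest epithelial sums (671 and 1080 CPM). The part of epithelial RNA in Tlr3 was not tested. No other listed ligand, receptor, kinase, IRF or feedback gene was called on JunB loss in any population.

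A further 35 interferon-induced genes outside the 41 served as a second list. None was called on JunB loss, of 32, 32 and 34 tested in PP, CD25- PP and colonic Tregs, where 3.35%, 0% and 0.00613% of all genes were called. Between colon and CD25- PP 6 of 34 were higher and 2 lower, with a median of 0.02, while 10% of all genes were higher and 7.29% lower. Those higher were Ifitm1, Ifitm2, Ifitm3, Gbp6, Tap2 and Trafd1. Ifitm3, a restriction factor of viral entry, was at 0.415 to 0.756 CPM in CD25- PP and 3.45 to 12.9 in the colon (log2 fold change 3.72 ± 0.465, adjusted p = 9.9e-04 by edgeR), and Gbp6 at 14 to 24.3 against 28.1 to 63 (1.21 ± 0.279, adjusted p = 0.0167). Slfn2 and Sp100 were lower, at -0.55 and -0.48 (adjusted p = 0.0486 and 0.0319 by edgeR).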

How the data were processed

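Tregs were sorted, RNA was amplified with the SMARTer v4 kit and 50-base reads were sequenced. Per the labels and the methods of the study, the authors trimmed reads (Trim Galore), aligned them to mm10 with STAR, keeping unique alignments only, and summed them per gene with featureCounts. The kit does not mark strand. Paired reads of the inducible line were used as single reads by the authors. The deposited values are raw counts per gene (2 tables, 1 per line). IDs were matched to GENCODE M21 for symbols, positions and exon lengths, whereas the authors used another release.

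Counts were tested with edgeR 4.0.16 (R 4.3.3). Genes with at least 1 CPM in as many libraries as the smallest group were kept, followed by TMM normalization, glmQLFit and glmQLFTest with prior count 1, and Benjamini-Hochberg adjustment over all tested genes, called at an adjusted p below 0.05. PP and CD25- PP were compared without covariates. Colonic groups were fitted with replicate number taken as cage. The methods of the study give cage as a factor, with 1 iHET and 1 iKO mouse per cage. Neither the methods nor the labels say which libraries shared a cage, so this pairing is an assumption. Deviations of same-numbered colonic libraries correlated at 0.16, 0.295 and -0.0211, and those of different numbers at -0.303 to 0.117. The 10 inducible libraries were fitted with 4 group means for the contrast of populations and the interaction, and for contrasts within genotypes, added after seeing the data. CPM shown use TMM factors over each line. The lines were not compared by test.

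The members and all lists were chosen with earlier results of these data known, so no set was tested and no score over members has a p. The lists are described by counts and medians beside all tested genes. Named are members called or, where under 3 were called, those of lowest p, the highest and lowest per length, members under their role, called genes of the pathway lists, and Ifnar1, Ifnar2, Ifngr1, Ifngr2 and Ifng. A result that falls under this rule is not reported here. The markers of other cell types were those of B cells, myeloid cells, plasmacytoid dendritic cells and epithelium. The plasmacytoid list summed to 73.1 to 141 CPM over all 14 libraries. Pacsin1 and Tcf4 made up most of each sum, with Pacsin1 at 30.5 to 107 CPM and Siglech at 0 to 9.69 CPM. The sum therefore follows mainly those genes. Alternatives were the tests of the study, DESeq2 1.42.0, other scaling, filters, prior count 0.125, the replicate block, a joint fit and leaving out each library. No pair of libraries was a duplicate. The labels do not say whether the colonic and CD25- PP libraries came from the same animals. Each library is taken as 1 mouse, and p-values measure the spread between 2 or 3 mice. The scripts were tested on simulated counts.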

Additional observations from a re-analysis of the deposited data

How the results depend on the processing

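No member followed through the alternatives changed sign. In PP Tregs, 4 members were called with DESeq2 (10%, against 5.69% of all genes), without a filter (9.76%, against 4.25%) and with a replicate block (10%, against 8.3%). These fits added Gbp4 and Parp14, while the main fit had called 5% of members and 3.35% of all genes. When a library was left out, the median log2 fold change of members was -0.09 to 0.09. In CD25- PP Tregs 2 members (Isg15 and Slfn1) were called without a filter (4.88%, against 0.544% of all genes), while with a library left out the median ranged from -0.18 to 0.26. In the colon 0 members were called in every alternative, against at most 0.27% of all genes, with no replicate block as well (median -0.18). Between colon and CD25- PP, 12 members (29.3%, against 10.6% of all genes) were called without a filter, 3 (7.32%, against 12.7%) with the replicate block, which lost Gbp2 and Ifih1, 1 within iHET alone and 2 within iKO alone, and 2 to 10 with a library left out (7.56% to 21.4% of all genes). For the interaction 2 members (Ifit1 and Ifit3) were called without a filter (4.88%, against 0.627% of all genes). The median became 0.35 without the 2 high libraries, an alternative chosen after seeing the data. The cause of these changes was not tested. Without a filter, more genes of low count enter the fit. The replicate numbers of PP and CD25- PP mark no stated pairing (correlations of deviations 0.158 and 0.0717), and the block changed no call but those named. Groups of 2 or 3 mice limit what can be called. With 1 library left in a group, that library is assumed to vary like the others. Genes near 1 CPM, such as Ifit3b, Oas2 and Ifi44, rest on few counts.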
